A study of Mus musculus with 4 samples.

Results

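The genes of the cytosolic ribosomal proteins were examined in mouse embryonic fibroblasts (MEFs) that lacked Dnmt3l and in wild-type (WT) MEFs. Members were chosen by symbol alone: the Rpl and Rps genes with a number and at most a short paralogue suffix, together with Rplp0, Rplp1, Rplp2 and Rpsa, and no symbol ending in -ps. That rule found 84 genes among the 36846 symbols of the deposited table, of which 52 are named for the large and 32 for the small subunit, and 8 carry a name ending in l or l1. Rps4l, counted with the small subunit, has no coding sequence in the GENCODE annotation. Genes such as Rps3a1, Fau and Gnb2l1 also encode proteins of the ribosome but fall outside the rule. The Dnmt3l-KO group (2 libraries) and the WT group (2 libraries) were C57BL/6 MEF lines obtained from crosses between Dnmt3l+/- parents, at embryonic day 13.5 to 14.5. All lines were at passage 4 and grew in DMEM with 10% FBS. RNA freed of ribosomal RNA was copied with random primers. Nothing in the labels tells whether the replicates are different embryos, so every p-value measures the spread between these libraries, which may be technical. The study compared the lines as donor cells for nuclear transfer and asked which genes differ between them.

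A ribosome consists of a large subunit, which joins amino acids, and a small subunit, which reads the mRNA. Each is built from ribosomal RNA and a fixed set of proteins, most of them small and basic. Most of the proteins are needed in equal numbers. Their mRNAs are short, very abundant in dividing fibroblasts, and begin with a pyrimidine tract through which growth signals control their translation. Mammalian genomes carry many processed copies of these genes, most of them pseudogenes, so short reads from a gene and its copies are hard to separate.

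Total counts were 51465395 and 40681328 in the Dnmt3l-KO libraries and 47776612 and 41049869 in the WT libraries. The targeted gene Dnmt3l had 0 and 0 counts in Dnmt3l-KO and 6 and 1 counts in WT, which is too few in either genotype to check the labels. Fibroblast markers (10 of 10 detected) summed to 18173 and 23414 counts scaled to library size (CPM) in Dnmt3l-KO and to 19539 and 16354 CPM in WT. All 10 had a positive log2 fold change, beside 7575 of 14760 symbols, and 0 were called. In 8 of the 10 the libraries overlapped between the genotypes, beside 9925 of 14760 symbols. Dcn, for example, had 3.61 and 8.97 CPM in Dnmt3l-KO, against 4.80 and 4.55 CPM in WT. Marker sums of other cell types were at most 49.2 CPM in any library, and the erythroid markers were at or near 0.

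Sequences of 2 pairs are shown here, because the likeness between sequences bears on which levels can be read gene by gene. Rps27l, on chromosome 9 (chr9:66944624-66949522, GRCm38, plus strand), and Rps27, on chromosome 3 (chr3:90212667-90213648, minus strand), encode closely related small-subunit proteins. Their coding sequences have equal lengths of 255 bases and differ at 61 of them, an identity of 76.1%, with the differences (in capitals) spread over the whole length. Rps27 also has a copy, Rps27rt, that is 100% identical to it over 341 bases, so its level cannot be read alone.

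Rps27l: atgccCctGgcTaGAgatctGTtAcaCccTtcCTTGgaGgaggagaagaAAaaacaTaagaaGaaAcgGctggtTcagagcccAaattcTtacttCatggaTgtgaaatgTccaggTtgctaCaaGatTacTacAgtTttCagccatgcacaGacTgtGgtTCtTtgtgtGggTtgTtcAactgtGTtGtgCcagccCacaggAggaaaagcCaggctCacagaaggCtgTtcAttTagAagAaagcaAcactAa
Rps27: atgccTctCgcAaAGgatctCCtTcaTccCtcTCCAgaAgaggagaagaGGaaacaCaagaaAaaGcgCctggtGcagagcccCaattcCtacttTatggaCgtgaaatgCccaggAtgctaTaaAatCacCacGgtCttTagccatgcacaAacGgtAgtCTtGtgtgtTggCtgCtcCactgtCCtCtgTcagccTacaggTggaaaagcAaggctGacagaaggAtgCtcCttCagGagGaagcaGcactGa

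Rps2, on chromosome 17 (chr17:24718121-24721927, plus strand), and the predicted gene Gm6139, on chromosome 5 (chr5:129622949-129623892, minus strand), are far more alike than Rps27l and Rps27. Over 882 bases they differ at 10, an identity of 98.9%, and the longest stretch without a difference runs for 279 bases. The 120 bases with the most differences, coding bases 184 to 303 of Rps2, hold only 3 (in capitals).

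Gm6139: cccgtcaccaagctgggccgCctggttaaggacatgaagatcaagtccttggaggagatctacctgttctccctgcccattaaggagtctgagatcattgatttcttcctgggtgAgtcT
Rps2: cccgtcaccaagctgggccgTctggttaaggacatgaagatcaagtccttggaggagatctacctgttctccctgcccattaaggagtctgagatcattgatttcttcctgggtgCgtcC

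Promoters of 63 members were found in RefSeq's table of GRCm38, which gives the bases around each gene's start. On either strand, the string CCGGAAG was present in 39.7% of the members' promoters, against 9.93% of all promoters. CTTTCC was present in 54.0% against 29.3%, AAGATGG in 15.9% against 7.28%, and TATAAA in 11.1% against 15.7%. These strings were kept from a longer search, and the counts are descriptions of letters, not of sites. Windows of 30 bases around CTTTCC (in capitals) are given for Rpl23 (chr11:97782517-97782546, minus strand), Rps27 (chr3:90213630-90213659, minus strand) and Rpl28 (chr7:4792955-4792984, plus strand), the first pair with a negative and the last with a positive fold change below.

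Rpl23: tcttaagcgcagCTTTCCcacgcagaacgg
Rps27: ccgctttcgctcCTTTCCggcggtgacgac
Rpl28: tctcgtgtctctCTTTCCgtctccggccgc

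The members together took a smaller share of the RNA in Dnmt3l-KO than in WT. They held 4.73% and 4.61% of all counts in Dnmt3l-KO, against 5.30% and 5.29% in WT. On the CPM scale, with library sizes scaled by edgeR's TMM factors, they summed to 48757 and 44871 in Dnmt3l-KO and to 53743 and 52014 in WT. Both Dnmt3l-KO sums lay below both WT sums, and their mean of 46814 ± 2748 CPM was 0.885 times the WT mean of 52878 ± 1223 CPM (SD, n = 2 each). With 2 libraries against 2, an exact permutation test cannot go below p = 0.33, so no test of the sum is given. The log2 ratio of the sums was -0.18, and it was -0.06 under the length and GC correction described below. In these bulk samples, fewer cells rich in this RNA and less of it in every cell cannot be told apart. The cause of the lower share was not tested.

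By subunit, the ratio to WT was lower for the small than for the large subunit, a difference that was not tested. Large-subunit genes summed to 30036 and 27476 CPM in Dnmt3l-KO and to 32347 and 31003 CPM in WT, a ratio of means of 0.908. Small-subunit genes summed to 18721 and 17395 CPM in Dnmt3l-KO and to 21396 and 21010 CPM in WT, a ratio of 0.852. The large sum was therefore 1.60 and 1.58 times the small sum in Dnmt3l-KO and 1.51 and 1.48 times in WT, with no overlap between the genotypes. Leaving out Rps2, the most abundant small-subunit gene by CPM, gave 1.78 and 1.76 in Dnmt3l-KO and 1.70 and 1.68 in WT. With copies matched by sequence or by description added to each member, the ratio of Dnmt3l-KO to WT was 0.909 for the large and 0.878 for the small subunit.

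**Figure D1:**
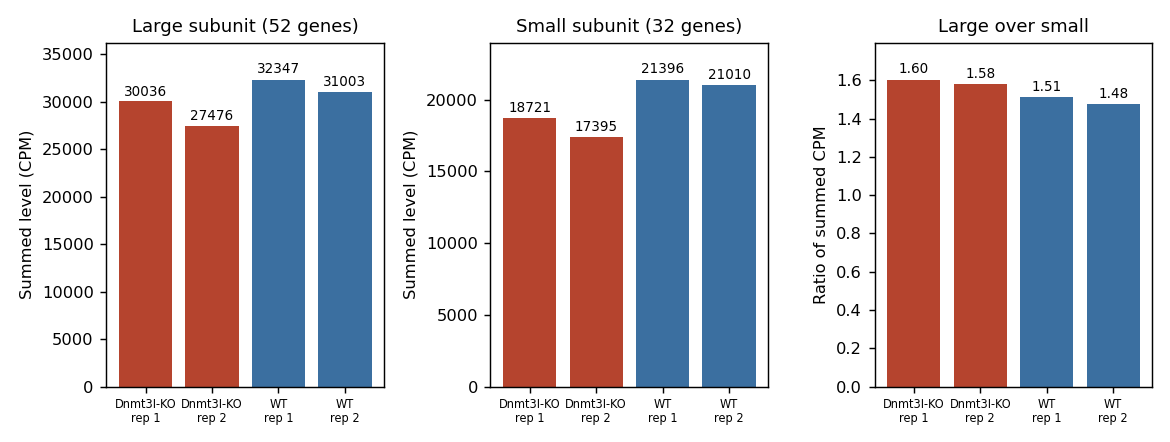
Summed CPM of the large-subunit and small-subunit genes, and their ratio, as 1 bar per library with Dnmt3l-KO left of WT. Each Dnmt3l-KO bar is lower than each WT bar in both sums (at most 30036 against at least 31003 for the large, and 18721 against 21010 for the small subunit), and higher in the ratio (at least 1.58 against at most 1.51).

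No single member passed the test between the genotypes. Of the 84 members, 82 passed edgeR's expression filter. The exceptions were Rpl10l, with 1 count in 1 Dnmt3l-KO library, and Rpl3l, with 0 counts. In edgeR's quasi-likelihood test adjusted over all 14760 symbols, 0 of the 82 were called, beside 0.0203% of all symbols (3 of 14760), and every member had an adjusted p of 0.999. DESeq2's Wald test called 0 members, beside 0.180% of all symbols. At an unadjusted p under 0.05, edgeR gave 14 members lower and 1 higher in Dnmt3l-KO, beside 1.81% and 2.34% of all symbols. In either direction that is 15 members, beside 4.15%. The count was 37 without Dnmt3l-KO replicate 1 (beside 12.0% of all symbols), 14 without Dnmt3l-KO replicate 2 (beside 13.3%), 2 without WT replicate 1 (beside 1.31%) and 5 without WT replicate 2 (beside 1.46%). It was 12 with the replicate number as a block (beside 4.03%) and 13 with copies matched by sequence or description summed (beside 4.08%).

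The log2 fold change was negative in 70 of 82 members, beside 48.7% of all symbols, and its median was -0.18, beside 0.01 over all symbols. Values ran from -0.52 for Rps29 to 0.26 for Rps16. In 54 members both Dnmt3l-KO libraries lay below both WT libraries, beside 16.5% of all symbols. In 4 members both lay above, beside 16.2%, and in 24 the libraries overlapped. The large subunit had 42 of 50 members negative, with a median of -0.15, and the small subunit had 28 of 32 negative, with a median of -0.21. Without Dnmt3l-KO replicate 2 the median over all members was -0.12. Leaving out Dnmt3l-KO replicate 1 gave a large-subunit median of -0.24, and leaving out WT replicate 1 gave -0.10. Leaving out WT replicate 2 gave -0.20 for the large and -0.19 for the small subunit, so the order of the subunits turned. Of the 14 members at an unadjusted p under 0.05 and lower in Dnmt3l-KO, 11 belonged to the small subunit and 3 to the large.

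**Figure D2:**
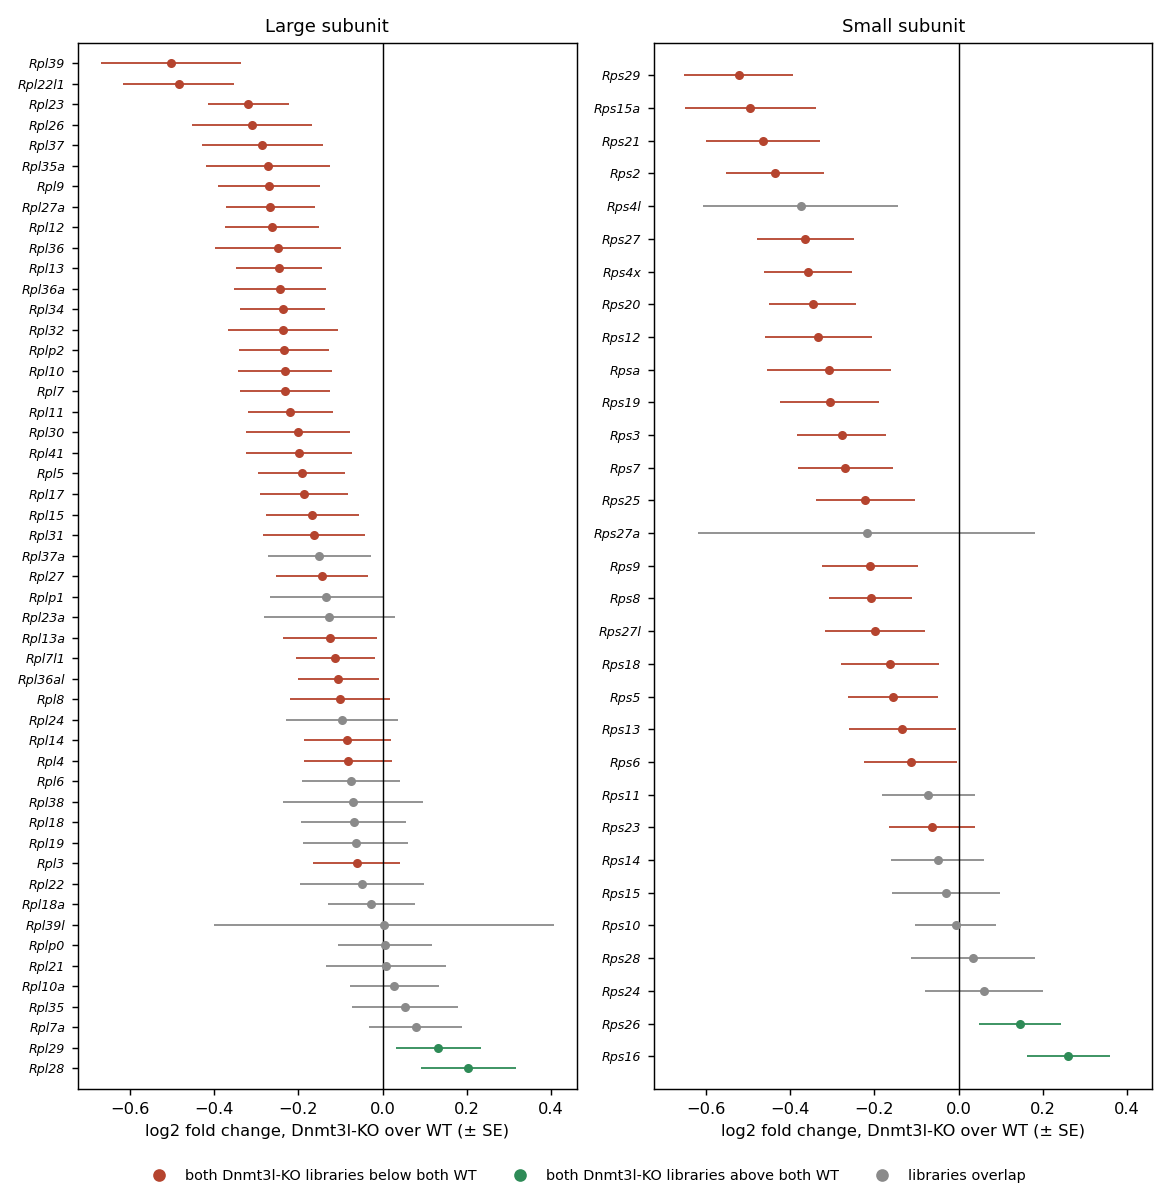
Log2 fold change of Dnmt3l-KO over WT for the members tested, 1 of them left out (points, with bars of 1 standard error), large subunit on the left and small subunit on the right. Most points lie left of 0, from -0.52 for Rps29 to 0.26 for Rps16, and colours mark whether the Dnmt3l-KO libraries were both below, both above or overlapping the WT libraries.

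Among small-subunit genes, Rps29 (chr12:69157722-69159186), which encodes a zinc-binding protein of the head, was furthest from WT. It had 379.8 and 322 CPM in Dnmt3l-KO, against 529 and 479 CPM in WT, a log2 fold change of -0.52 ± 0.13 (SE; edgeR, unadjusted p = 0.010, adjusted p = 0.999). Rps2, whose protein lines the channel through which mRNA enters, had 1893 and 1799 CPM in Dnmt3l-KO, against 2418 and 2579 CPM in WT (log2 fold change -0.44 ± 0.12). Neither gene's libraries overlapped between the genotypes, and for Rps2 the gap changes once Gm6139 is added, as described below. Rps3, the neighbour of Rps2 at the entry channel, had 821 and 820.5 CPM in Dnmt3l-KO, against 1026 and 964 CPM in WT (-0.28 ± 0.11), and is named here after its values were seen.

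Rps21, of the small subunit's body, had 353 and 327 CPM in Dnmt3l-KO, against 515 and 423 CPM in WT (-0.46 ± 0.14). Rps15a had 429 and 374 CPM in Dnmt3l-KO, against 631 and 500.1 CPM in WT (-0.49 ± 0.16), counted on a single transcript model of 5179 bases. In both genes the lowest library was Dnmt3l-KO replicate 2 and the highest was WT replicate 1. Rps4x, the X-linked gene of a protein of the body, had 819 and 791 CPM in Dnmt3l-KO, against 1048 and 1014 CPM in WT (-0.36 ± 0.10). Rps20, of the head, had 526 and 489.6 CPM in Dnmt3l-KO, against 656 and 635 CPM in WT (-0.35 ± 0.10). In Rps4x and Rps20 the gap between the genotypes was wider than the gap between the libraries of either genotype. Rps6, the substrate of the S6 kinases, had 747 and 677 CPM in Dnmt3l-KO, against 759 and 782 CPM in WT (-0.11 ± 0.11), a difference of the size of its error.

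Among large-subunit genes, Rpl39 (chrX:37082518-37085222), whose protein lines the tunnel through which the new chain leaves, was furthest from WT. It had 537 and 447 CPM in Dnmt3l-KO, against 778 and 617 CPM in WT (-0.50 ± 0.17). The spread within WT alone, 617 to 778 CPM, was wider than the step to the nearest Dnmt3l-KO library. Rpl22l1, a paralogue of Rpl22, had 37.4 and 45.7 CPM in Dnmt3l-KO, against 60.2 and 56.1 CPM in WT (-0.48 ± 0.13), and Rpl23, of the face that meets the small subunit, had 44.9 and 41.9 CPM in Dnmt3l-KO, against 52.9 and 55.4 CPM in WT (-0.32 ± 0.10). Neither overlapped between the genotypes.

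The genes of the stalk, which recruits the translation factors, lay near WT or below it. Rplp0, the stalk's base, had 1766 and 1705 CPM in Dnmt3l-KO, against 1689 and 1767 CPM in WT (0.01 ± 0.11). Rplp1 had 1200.2 and 1065 CPM in Dnmt3l-KO, against 1152 and 1333 CPM in WT (-0.13 ± 0.14), and Rplp2 had 498 and 449 CPM in Dnmt3l-KO, against 557 and 557 CPM in WT (-0.23 ± 0.11). The libraries overlapped for Rplp0 and Rplp1 and not for Rplp2. For the tunnel's wall and rim, 9 genes were listed (Rpl17, Rpl19, Rpl22, Rpl23a, Rpl26, Rpl31, Rpl35, Rpl38 and Rpl39), a list that is not complete. Of these, 8 had a negative fold change, beside 70 of all 82 members, and the median over the 9 was -0.13, beside -0.18. In 4 of them no Dnmt3l-KO library was as high as either WT library, beside 16.5% of all symbols and 54 of all 82 members. Rpl5 and Rpl11, which bind the 5S ribosomal RNA and can hold the p53 ligase Mdm2, did not overlap between the genotypes. Rpl5 had 745 and 719 CPM in Dnmt3l-KO, against 852 and 821 CPM in WT (-0.19 ± 0.10), and Rpl11 had 423 and 409 CPM in Dnmt3l-KO, against 499 and 469.7 CPM in WT (-0.22 ± 0.10). Of 18 members known from human Diamond-Blackfan anaemia, 14 had a negative fold change, the median over the 18 was -0.21, and in 12 the Dnmt3l-KO libraries stood under those of WT without overlap, beside 16.5% of all symbols and 54 of all 82 members. These role groups were drawn up after the values were known.

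The 4 members on the X chromosome, Rpl10, Rpl36a, Rpl39 and Rps4x, had no overlap between the genotypes, with Dnmt3l-KO below WT, beside 16.5% of all symbols and 54 of all 82 members. The log2 fold change was -0.23 ± 0.11 for Rpl10, a protein near the tRNA sites, and -0.24 ± 0.11 for Rpl36a, beside the values of Rpl39 and Rps4x above. The members are spread over 19 chromosomes, and the chromosome with the most, chromosome 7, carries 14 of them.

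A few genes stood above WT. Rps16 (chr7:28350689-28352698), whose protein reaches to the P-site tRNA, had 165.5 and 181 CPM in Dnmt3l-KO, against 148 and 141 CPM in WT, a log2 fold change of 0.26 ± 0.10 (edgeR, unadjusted p = 0.046, adjusted p = 0.999). Rpl28 had 482 and 424 CPM in Dnmt3l-KO, against 394 and 394 CPM in WT (0.20 ± 0.11), and Rps26, of the mRNA exit channel, had 403 and 387 CPM in Dnmt3l-KO, against 353 and 362 CPM in WT (0.14 ± 0.10). Rpl29 had 390.4 and 359 CPM in Dnmt3l-KO, against 346 and 338 CPM in WT (0.13 ± 0.10). These 4 were the only members with both Dnmt3l-KO libraries above both WT libraries. Rpl7a followed with 791 and 713 CPM in Dnmt3l-KO, against 709 and 716 CPM in WT (0.08 ± 0.11), where the libraries overlapped.

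Levels between genes can be compared only per length, and on the FPKM scale the members were far from equal. The median over the 82 members was 761 FPKM (mean of 4 libraries), with 22 members above 1000 FPKM and 75 above 100 FPKM. Rpl41, which encodes the smallest ribosomal protein, was highest at 2825 FPKM. It had 2760 and 2587 FPKM in Dnmt3l-KO, against 3001 and 2952 FPKM in WT. Rplp1 followed at 2316, Rpl38, a protein at the tunnel's rim whose loss disturbs Hox mRNA translation in mice, at 2082, Rps2 at 1969, and Rps12, of the beak, at 1681 FPKM. At the low end were Rpl39l at 6.38, Rpl22 at 14.9, Rpl7l1 at 28.6 and Rpl23 at 41.7 FPKM, with Rpl10l close to 0. Rows described as copies of Rpl22 and Rpl23 held more counts than these genes, as given below. The order was nearly the same in both genotypes: across the 82 members, the log2 mean FPKM of Dnmt3l-KO and WT had a Pearson correlation of 0.994, a description across genes of the same libraries. The coefficient of variation over the 4 libraries had a median of 9.98% and ran from 1.28% for Rps10 to 36.6% for Rps27a.

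**Figure D3:**
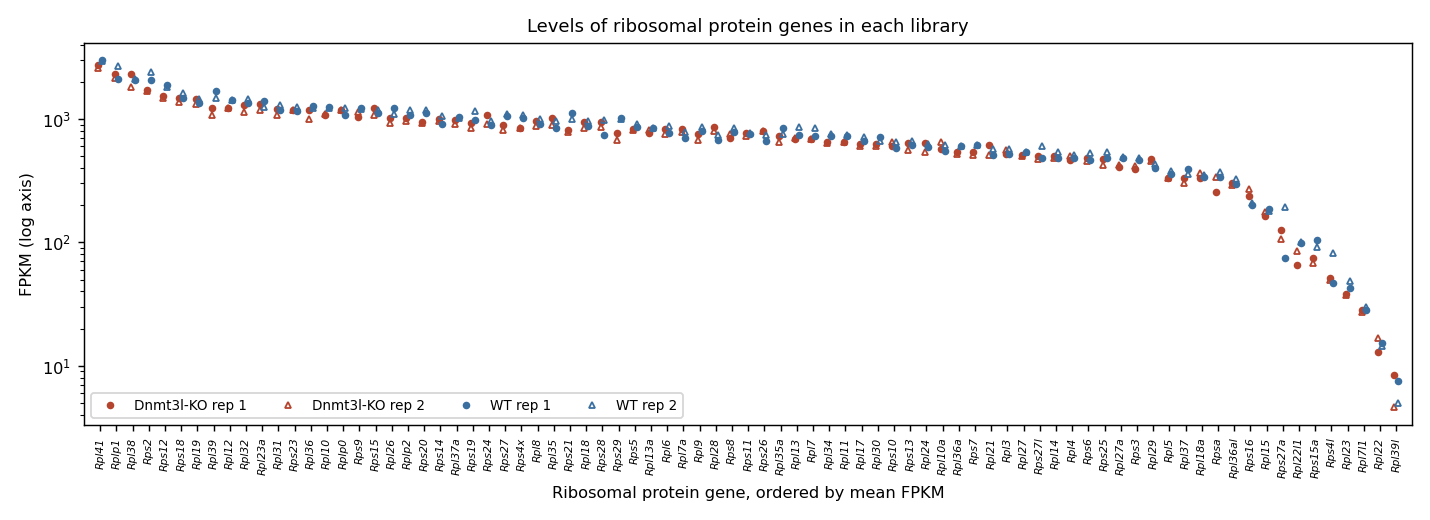
FPKM of the members tested, 1 of them left out, in each of the 4 libraries (log axis), Dnmt3l-KO in red and WT in blue, ordered by mean level. Levels fall slowly over most genes and steeply at the low end, from 2825 FPKM for Rpl41 to 6.38 FPKM for Rpl39l, and the libraries lie close together except for genes such as Rps27a.

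Of the 8 members named as paralogues, 6 were measured, and 5 of the 6 had a negative fold change; the median over the 6 was -0.16. Their share was taken as the paralogue's part of the FPKM of the pair. Rpl22l1 held 83.5% and 83.4% of the Rpl22 pair in Dnmt3l-KO, against 86.7% and 87.6% in WT, so its share was lower in both Dnmt3l-KO libraries. The log2 ratio of their CPM differed by -0.43 (Dnmt3l-KO minus WT), while Rpl22 itself had 31.5 and 39.0 CPM in Dnmt3l-KO, against 39.0 and 33.9 CPM in WT. The share leaves out LOC102642602, a row matched to Rpl22 by its description alone.

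Rps27l, a target of p53 in human cells, held 35.8% and 37.0% of its pair with Rps27 in Dnmt3l-KO, against 31.5% and 35.9% in WT, which overlapped. The share leaves out Rps27rt, a copy of Rps27, and Rps27 held 68.3% of the level it had jointly with that copy. Rps27l itself had 257 and 236 CPM in Dnmt3l-KO, against 263 and 304 CPM in WT (-0.20 ± 0.12). Rpl36al held 36.0% and 36.1% of its pair with Rpl36a in Dnmt3l-KO, against 32.7% and 35.0% in WT. Its share was higher in both Dnmt3l-KO libraries, by less than the spread within WT. Rps4l held 5.77% and 5.54% of its pair with Rps4x in Dnmt3l-KO, against 4.42% and 7.03% in WT, and overlapped. Rpl7l1 held 3.97% and 3.83% of its pair with Rpl7 in Dnmt3l-KO, against 3.78% and 3.43% in WT, a small step without overlap. Rpl39l, known for its part in male germ cells, held 0.674% and 0.427% of its pair with Rpl39 in Dnmt3l-KO, against 0.442% and 0.339% in WT, at 7.43 and 3.92 CPM in Dnmt3l-KO and 7.05 and 4.29 CPM in WT. Rpl10l, which stands in for the X-linked Rpl10 in male meiosis of mice, and Rpl3l, the form of striated muscle, were at or near 0 in all 4 libraries. Coding identity within the pairs ran from 57.3% for Rpl7l1 to 87.9% for Rpl36al, with 85.3% for Rpl39l and 69.4% for Rpl22l1.

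Near-identical copies limit what can be said of single members. By sequence (at least 95% identity over at least 80% of the length), 78 of the 84 members have a copy in the GENCODE annotation, and 41 have one with a row in the deposited table. Adding copies matched by sequence (74) or only by their description as similar to a member (88) touched 56 members. The copies included 1 called symbol, Gm6139. It had 18650 and 17413 counts in Dnmt3l-KO, against 5 and 7 counts in WT. Rps2 and Gm6139 together had 2268 and 2215 CPM in Dnmt3l-KO, against 2419 and 2579 CPM in WT, and their joint log2 fold change was -0.16 ± 0.11 (edgeR, adjusted p = 0.999). Rps2 alone held 91.7% of that sum over the 4 libraries, a figure that pools unlike genotypes. Gm6139 had 374 and 417 CPM in Dnmt3l-KO, against 0.106 and 0.168 CPM in WT. The log2 fold change of Rps2 alone was -0.44, so the value depends on whether the counts of Gm6139 are added. Which of the 2 genes those reads came from was not tested.

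For Rps27 and its copy Rps27rt, 100% identical over 341 bases, the joint level was 524 and 479.9 CPM in Dnmt3l-KO, against 661 and 636 CPM in WT (-0.37 ± 0.11), close to the -0.36 of Rps27 alone. Rps27a, which encodes ubiquitin fused to a small-subunit protein, had 105 and 84.7 CPM in Dnmt3l-KO, against 67.0 and 154 CPM in WT. With Gm8430, matched by sequence, and LOC100042019, matched by description only, it had 519 and 436 CPM in Dnmt3l-KO, against 607 and 533 CPM in WT (-0.25 ± 0.14), which separated libraries that had overlapped. Rpl23 held 9.24% of the counts summed with Gm9794, matched by sequence, and LOC100044627 and LOC100862455, matched by description only, and the joint log2 fold change was -0.08 ± 0.12, against -0.32 alone. Rpl22 held 16.0% of the counts summed with LOC102642602, matched by description only (joint -0.03 ± 0.10). Rpsa, which encodes a small-subunit protein also described as a laminin receptor, had 524 and 667 CPM in Dnmt3l-KO, against 739 and 734 CPM in WT (-0.31 ± 0.15). With the copy LOC102642689, matched by description only, it had 1388 and 1407 CPM in Dnmt3l-KO, against 1326 and 1504 CPM in WT (-0.02 ± 0.12), and the libraries overlapped. Named pseudogenes were far lower: Rps15a-ps5 had 5.35 and 5.05 CPM in Dnmt3l-KO and 9.62 and 6.09 CPM in WT, and Rpl14-ps1 and Rps15a-ps4 were lower still. Over the whole set, the sum with copies was 0.896 times WT, beside 0.885 without.

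**Figure D4:**
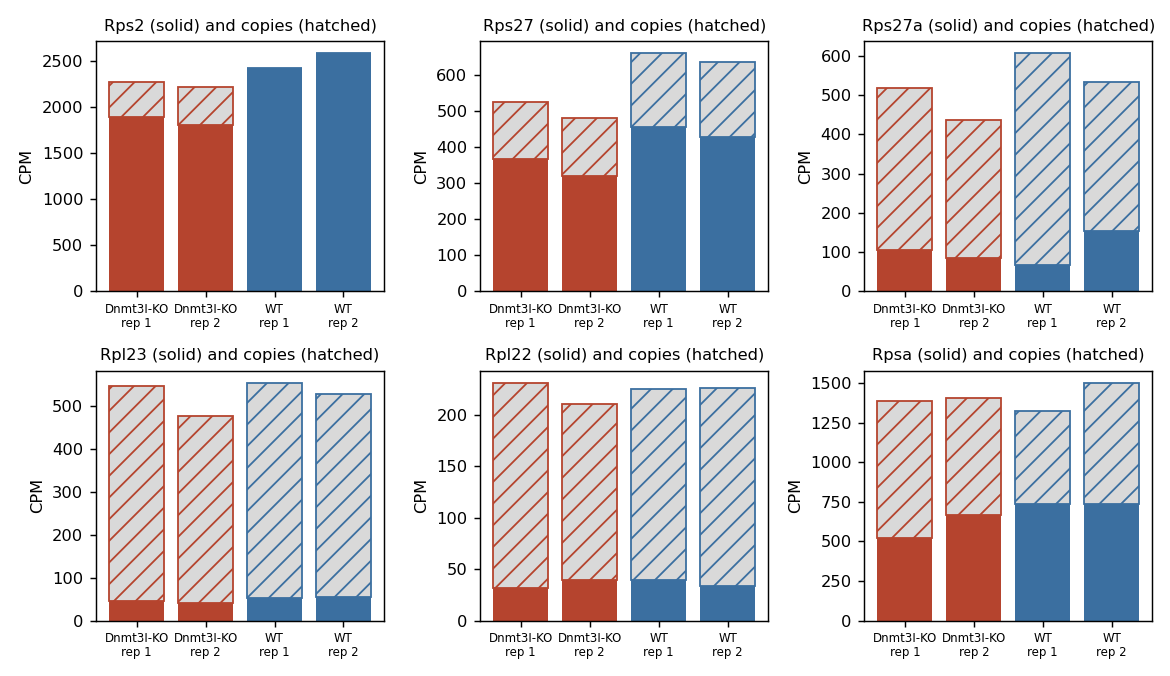
CPM of 6 members (solid) and of their copies, matched by sequence or only by description (hatched, stacked on top) in each library, Dnmt3l-KO in red left of WT in blue. Gm6139 adds visibly to Rps2 in Dnmt3l-KO alone, where it had 18650 and 17413 counts against 5 and 7 in WT, and in Rpl23, Rpl22 and Rps27a the copies hold most of the joint level.

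At the level of transcripts, the authors' deposited table holds 155 transcripts of members, of which 134 have an adjusted p. Of the 134, the authors' deposited table puts 2 under 0.05, beside 0.441% of all transcripts with an adjusted p. One is the predicted variant X1 of Rpl10a, with 338 and 226 counts in Dnmt3l-KO and 84 and 58 counts in WT (log2 fold change 1.32 ± 0.33, adjusted p = 0.0214, from the authors' deposited table). The other is the predicted variant X1 of Rps2, with 55 and 40 counts in Dnmt3l-KO and 253 and 162 counts in WT (-1.34 ± 0.35, adjusted p = 0.0297, from the authors' deposited table). Both are minor forms, with 0.717% of the counts of Rpl10a and 0.130% of those of Rps2. Transcripts with at least 10% of the counts were found more than once in 12 members, Rpl5, Rpl6, Rpl11, Rpl15, Rpl22, Rpl22l1, Rpl29, Rpl35a, Rps19, Rps24, Rps27a and Rps28. Rps24 had 71.4% and 70.1% of its counts on variant 2 in Dnmt3l-KO, against 72.4% and 70.3% in WT. Its variant 1 had 18.5% and 22.3% in Dnmt3l-KO, against 19.2% and 15.5% in WT. The libraries overlapped for both variants. The predicted variant X1 of Rpl22l1 had 51.8% and 48.0% in Dnmt3l-KO, against 56.5% and 56.4% in WT, and X1 of Rpl6 had 88.6% and 85.1% in Dnmt3l-KO, against 85.6% and 94.1% in WT. The shares of Rpl22l1 did not overlap between the genotypes, and those of Rpl6 did. Variant 2 of Rpl35a had 12.5% and 12.8% in Dnmt3l-KO, against 10.8% and 10.5% in WT, and the named form of Rpl15 had 61.8% and 67.3% in Dnmt3l-KO, against 61.6% and 56.1% in WT, both without overlap. Its variant X1 did not overlap either, with lower shares in Dnmt3l-KO. The named form of Rpl11 had 69.8% and 59.1% in Dnmt3l-KO, against 65.6% and 57.6% in WT, and that of Rpl5 had 85.1% and 82.9% in Dnmt3l-KO, against 84.5% and 83.4% in WT. Variant 1 of Rps27a had 62.9% and 67.7% in Dnmt3l-KO, against 56.9% and 70.6% in WT. These 3 overlapped. Rpl22 divided its few counts unevenly, with 72.6% and 29.9% on variant 1 in Dnmt3l-KO, against 63.3% and 71.2% in WT.

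Transcript length moved with the same contrast across the whole table. Length here is that of each gene's longest matched transcript, which can exceed the length of the form counted. Rps20, for example, is listed at 3706 bases, but its 656 CPM and 1123 FPKM in WT replicate 1 belong to a far shorter form. The length classes and the correction below are therefore approximate. By this measure, the members tested have a median transcript length of 817.5 bases, against 3055 bases for the other genes with a known length. Other genes under 1000 bases had a median log2 fold change of -0.11 and were negative in 592 of 872 cases (67.9%), while other genes of 1000 bases or more had a median of 0.02. The 57 members under 1000 bases had a median of -0.20, and the 25 longer ones -0.13, each below the median of the other genes in its class. Under 500 bases, where 10 members fall, the order turned, with -0.22 for members and -0.28 for other genes. After each library was corrected for length and GC content, the median of the members was -0.04, with 49 of 82 negative beside 48.7% of all symbols and 6 members at an unadjusted p under 0.05 beside 2.09%. The large subunit then had a median of -0.02, the small subunit -0.11, and the summed level differed by -0.06 on the log2 scale.

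**Figure D5:**
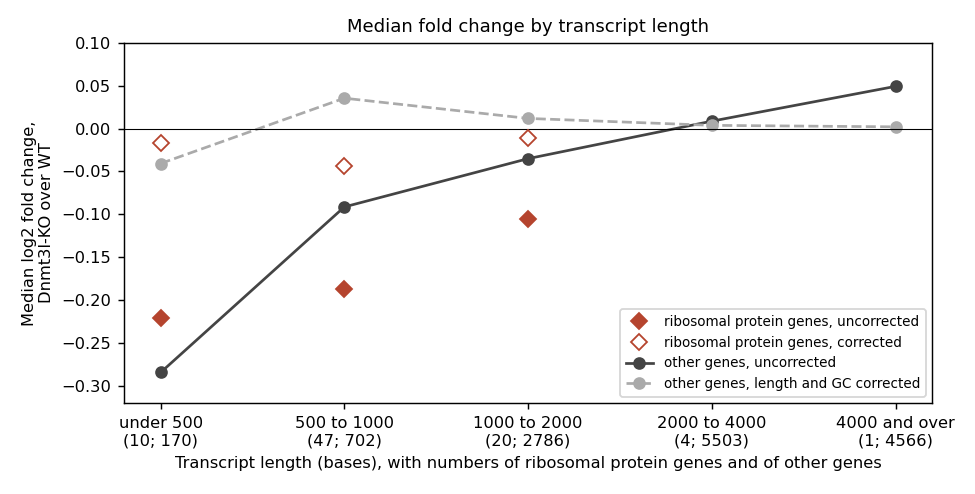
Median log2 fold change of Dnmt3l-KO over WT by transcript length (each gene's longest matched transcript), before and after correction for length and GC content. Diamonds are ribosomal protein genes (bins with at least 5 members), and circles are other genes. Before correction both sets are lowest for short transcripts, with -0.28 for the 170 other genes under 500 bases and 0.05 for those of 4000 bases and over, and the correction brings most medians close to 0.

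The difference was also uneven between libraries. Against WT replicate 1 and 2, the members' median log2 difference was -0.14 and -0.08 in Dnmt3l-KO replicate 1, and -0.25 and -0.20 in Dnmt3l-KO replicate 2. Between the Dnmt3l-KO libraries it was -0.13 (replicate 2 minus 1), with 68 of 82 members lower in replicate 2, and between the WT libraries it was -0.05 (replicate 2 minus 1). The step between the Dnmt3l-KO libraries thus lay between the 2 steps from WT to Dnmt3l-KO replicate 1. Fibroblast markers, given above, were highest in Dnmt3l-KO replicate 2, where the members were lowest. Their part in the result was not tested.

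Before any correction for length, genes that work with the ribosomal proteins had medians nearer 0 than the members' -0.18. After the length and GC correction the members' own median was -0.04, and the lists were not matched to the members for length. Over all symbols, 48.7% had a negative fold change and 0.0203% were called. Of 23 elongation factors and other genes with a 5′ pyrimidine tract, edgeR called 0, and 12 were negative; the median was -0.02. The noncoding host gene Gas5 had 40.0 and 42.5 CPM in Dnmt3l-KO, against 52.9 and 49.8 CPM in WT (-0.32 ± 0.10), and Snhg1 had a log2 fold change of -0.29 ± 0.11. Pabpc1, the poly(A)-binding protein gene, had 936 and 835 CPM in Dnmt3l-KO, against 758 and 703 CPM in WT (0.28 ± 0.12). These genes lay on both sides of WT. Of 77 ribosome biogenesis factors tested, 0 were called and 51 were negative; the median was -0.05. The methyltransferase gene Emg1 (-0.30 ± 0.10) and Mphosph10 (-0.30 ± 0.11), both of the small-subunit processome, lay below WT, and Nol6 (0.29 ± 0.11) above. Of 15 RNA polymerase I factors, 0 were called and 10 were negative; the median was -0.06. Examples were Polr1c (-0.20 ± 0.11), Taf1b (-0.16 ± 0.15) and, on the positive side, Ubtf (0.12 ± 0.12). Of the ribosomal genes outside the name rule, Rps3a1 had a log2 fold change of -0.17 ± 0.11, Gnb2l1 of -0.16 ± 0.11 and Fau of 0.13 ± 0.11.

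Many members also carry small nucleolar RNAs, guides of ribosomal RNA modification, in their introns. The annotation places 56 of these inside 29 members, 31 have a row in the table, and 6 passed the expression filter. All 6 had a negative fold change, beside 48.7% of all symbols, and edgeR called 0, beside 0.0203%. These RNAs are short, and other genes under 500 bases had a median log2 fold change of -0.28. Snora21, inside Rpl23, had 1.08 and 1.24 CPM in Dnmt3l-KO, against 2.42 and 2.13 CPM in WT (-0.97 ± 0.28), and Snora64, inside Rps2, had 0.661 and 0.622 CPM in Dnmt3l-KO, against 1.27 and 1.34 CPM in WT (-1.02 ± 0.32). Snora7a, inside Rpl32, had a log2 fold change of -0.97 ± 0.43. In all of the 6 but Snord15a, both Dnmt3l-KO libraries lay below both WT libraries, beside 16.5% of all symbols. The hosts Rpl23 and Rps2 had the same order, but the libraries of Rpl23 overlapped once its copies were added.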

How the data were processed

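RNA-seq libraries of 2 Dnmt3l-KO and 2 WT samples were used. The build is mm10 (GRCm38), and DESeq2 1.8.0, eXpress 1.4.1, Cufflinks 2.2.1 and TopHat2 2.0.12 are named, without roles, in the submitters' processing notes. The authors deposited 1 table of RefSeq transcripts that holds, per the file headers, estimated counts (whole numbers in the file) and FPKM for every library. It also holds the authors' own comparison per transcript: a mean signal, a log2 fold change with its error, a test score and a p-value, per the file headers. No source used here says how reads shared by several transcripts were divided.

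Counts were summed per symbol and tested as Dnmt3l-KO minus WT with edgeR 4.0.16 (R 4.3.3; filterByExpr, TMM, robust quasi-likelihood F-test, Benjamini-Hochberg over 14760 symbols, threshold 0.05). Standard errors were derived from the F statistic. CPM uses the TMM library sizes, and FPKM was summed over transcripts. The test was tested on simulated data. Length and GC content were those of each symbol's longest GENCODE transcript, among those matched to its RefSeq accessions where any were. The correction was a loess fit (span 0.4). Copies were found with BLAST 2.17.0. Adding copies was chosen after seeing the data. The alternatives were other normalizations and filters, DESeq2 1.42.0, limma 3.58.1 on counts and on log2(FPKM + 1) or log2(FPKM + 0.1), a replicate block, named pseudogenes summed, the most abundant transcript alone, and each library left out. Members, lists and role groups were chosen with earlier results of these data known. Named genes were the paralogue pairs, the 10 members of smallest p with a negative and the 5 with a positive fold change, the 5 highest and 5 lowest by FPKM, Rplp0, Rplp1, Rplp2 and Rpsa, Rpl5, Rpl11, Rps6, Rps27a and Fau, Dnmt3l, up to 3 named pseudogenes and 3 small nucleolar RNAs inside members, members with several transcripts of at least 10% of the counts, and up to 3 of each list; some genes under this rule are not reported here. Rps3, Rps10, Rpl10a, Rps3a1, Snord15a, Gm6139 and other copies, and genes named only in the role groups were added after their values were seen. Total counts per library, given above, limit precision for the low members.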

Additional observations from a re-analysis of the deposited data

How the results depend on the processing

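Over 19 alternative settings, 0 members were called in every one, and the members' median log2 fold change stayed negative. The number of all genes called was 8 with no filter, 31 with DESeq2, 6 with limma on log2(FPKM + 1) and on log2(FPKM + 0.1), and 2 to 6 with a library left out, against 3. With a library left out, the members' median ran from -0.25 (without Dnmt3l-KO replicate 1) to -0.12, and the large-subunit median from -0.24 to -0.10. Under the length and GC correction the medians were -0.042 for all members, -0.019 for the large and -0.115 for the small subunit, and the summed level had a log2 ratio of -0.059.

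Deviations of same-numbered libraries from their genotype means correlated at 0.0999 across 14760 genes. With 2 libraries per genotype this is a single value, so it cannot tell whether the replicate numbers mark a pairing. With the replicate block 4 genes and 0 members were called, and the members' median was -0.17.

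Of the named genes' values under these settings, 999 kept their direction and side of the threshold and 22 changed sign. Rpl39l (0.004) became -0.015 with upper-quartile scaling, -0.0074 with library totals, -0.011 with limma-voom, -0.022 with the block and -0.0030 with the most abundant transcript alone. Rplp0 (0.01) became -0.011 with upper-quartile scaling. With a library left out, log2 fold changes ran from -0.54 to 0.41 for Rpl39l, -0.028 to 0.038 for Rplp0, -0.21 to 0.095 for Rpl22, -0.00092 to 0.15 for Rpl7a, -0.10 to 0.20 for Rps24, -0.29 to 0.12 for Rpl38, -0.70 to 0.50 for Rps27a and -0.00072 to 0.24 for Ubtf. Under the length and GC correction, Rpl36al was 0.091, Rpl38 0.074, Rplp1 0.013, Rps27l 0.046 and Rps6 0.015. The cause of these changes was not tested.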
